A study of Mus musculus with 3 samples.

Results

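Matricellular proteins are secreted into the extracellular matrix, where they bind collagens, growth factors and cell surface receptors and change how cells attach and signal, without forming the load-bearing fibres themselves. The 10 genes described here encode the calcium-binding glycoprotein SPARC and its relative SPARCL1 (hevin), the 5 thrombospondins (Thbs1 to Thbs4 and Comp, the cartilage oligomeric matrix protein), tenascin C (Tnc), periostin (Postn) and osteopontin (Spp1). They were taken by gene symbol from a table of 46983 genes, and each symbol stood on 1 row. In connective tissue SPARC is known for binding collagen and for its part in collagen handling, thrombospondins 1 and 2 for limiting vessel growth, and tenascin C, periostin and osteopontin for rising in development and repair.

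The data are bulk RNA sequencing of leptomeningeal cells, which form the delicate pial and arachnoid layers around the brain, in 3 libraries of 1 group: the pia-enriched fraction of vehicle-treated mice. The tissue was dissected by hand, dissociated and sorted by flow cytometry. The labels gave neither the vehicle and its purpose nor the sorting gate, nor the strain, age or sex of the animals, nor whether animals were pooled, so the spread between libraries may be technical. With 1 group there is no treatment comparison, and the comparisons below are between genes and between libraries 1, 2 and 3. In sorted bulk RNA a difference in the number of cells of a type and a difference in RNA per cell cannot be told apart.

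The libraries held between 21002860 and 28704952 gene counts. Library 1 stood apart from the others, with 0.918% of its gene counts from mitochondrial genes against 3.60% and 3.46% in libraries 2 and 3. Defining fibroblast genes were abundant in every library, with Col1a2 at 11497 ± 935 and Col1a1 at 5099 ± 853 counts per 1000000 gene counts after TMM scaling (CPM, mean ± SD, n = 3). Of 7 leptomeningeal fibroblast markers, Slc47a1 and Ptgds led with 1045 ± 198 and 468 ± 208 CPM. Only these 2 had a mean above 100 CPM, and the median of the list was 57.9 CPM. Of 5 arachnoid barrier markers, Cldn11 and Krt19 led with 30.7 ± 5.04 and 24.0 ± 13.0 CPM, and Dsp had a count in 1 library alone.

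The SPARC family held the most abundant gene of the set. Sparc (ENSMUSG00000018593.12, GRCm38 chromosome 11, 55394500 to 55423183, minus strand) was at 10483, 11754 and 8730 CPM in libraries 1, 2 and 3. This made it the gene with rank 6 of all genes in the table, with a mean of 10322 ± 1519 CPM. The libraries differed by no more than 1.35-fold, and 72.5% of the 14409 genes tested had a larger range between libraries. Sparc alone gave 75.5% ± 1.11 of the counts of the 10 genes (SD, n = 3), and the 10 genes together took 1.37% ± 0.211 of all gene counts.

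Sparcl1 encodes a SPARC relative that is made by astrocytes and vascular cells in brain, and it lies on chromosome 5 (104079111 to 104113733, minus strand). Its level was 245, 296 and 659 CPM in libraries 1, 2 and 3. Library 3 was high and the other libraries lay close together. Its range of 1.42 on the log2(CPM + 1) scale was exceeded by 10.6% of tested genes. The goodness-of-fit test of edgeR, which asks whether a gene varies between libraries more than other genes of its abundance, gave an unadjusted p of 0.0414 and an adjusted p of 0.656. The ratio of Sparc to Sparcl1 per kilobase of exon was 33.2, 30.8 and 10.3 in libraries 1, 2 and 3.

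Marker sums of cell types that could add Sparcl1 transcripts were set beside it. The 6 mural cell markers summed to 2514, 2390 and 4023 CPM in libraries 1, 2 and 3. Library 3 was highest for 5 of the 6, as for Sparcl1, and no gene of the list was at 0. Acta2 led the list at 1624 ± 632 CPM and was highest in library 3, whereas Pdgfrb was highest in library 1, at 712, 542 and 536 CPM. The 5 astrocyte markers summed to between 45.5 and 76.9 CPM, with 5 of 5 highest in library 3, led by Slc1a3 (31.5 ± 7.39 CPM) and Slc1a2 (9.65 ± 6.22 CPM). The 6 endothelial markers summed to 90.3, 67.4 and 76.8 CPM, highest in library 1, where Sparcl1 was lowest, with Cdh5 at 28.9 ± 7.44 CPM and Egfl7 at 19.2 ± 8.76 CPM. The part of these cell types in the Sparcl1 values was not tested.

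**Figure D1:**
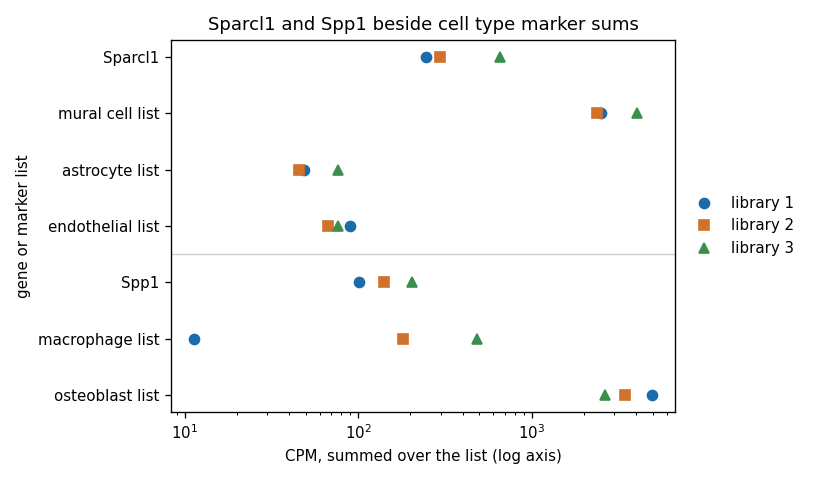
CPM on a log axis for Sparcl1 and Spp1 and, as sums, for 5 lists of cell type markers, with 1 symbol per library and no error bars. Library 3 is highest for Sparcl1 (659 CPM) and for the mural (4023 CPM) and astrocyte lists, and the macrophage list spans 11.3 to 487 CPM. The osteoblast sum is almost all Alpl (4871, 3350 and 2569 CPM in libraries 1, 2 and 3).

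Thrombospondins fall into trimeric members, Thbs1 and Thbs2, and pentameric members, Thbs3, Thbs4 and Comp. Both trimeric genes were abundant. Thbs1 (chromosome 2, 118111876 to 118127133, plus strand), which encodes an activator of latent TGF-beta, was at 1096, 1503 and 848 CPM in libraries 1, 2 and 3. Thbs2 (chromosome 17, 14665500 to 14694235, minus strand) was at 1212, 1163 and 861 CPM. Library 3 was lowest for both, and library 2 was highest for Thbs1. Megakaryocyte and platelet genes, from cells known as a store of thrombospondin 1, summed to 21.5, 17.1 and 36.8 CPM over 5 genes. Itga2b led them and was highest in library 1 (16.4, 7.12 and 11.3 CPM), and Pf4 was highest in library 3 (2.43, 8.43 and 20.6 CPM). Their part in the Thbs1 values was not tested.

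The pentameric genes were lower, and unequal among themselves. Comp (chromosome 8, 70373558 to 70382066, plus strand), which is best known from cartilage and tendon, was at 332, 249 and 240 CPM. Thbs3 (chromosome 3, 89215180 to 89226837, plus strand) was at 212, 167 and 115 CPM. It shares 318 bp of exon with Mtx1 on the opposite strand, 6.59% of its own exon length. Whether the counting used strand was not stated, so reads from that stretch are uncertain. Thbs4 (chromosome 13, 92751590 to 92794818, minus strand), known from tendon, muscle and heart, had 33, 17 and 61 counts, or 1.67, 0.571 and 2.35 CPM. The exact 95% Poisson interval covers counting error only. It ran from 1.15 to 2.34 CPM in library 1, 0.333 to 0.915 CPM in library 2 and 1.80 to 3.02 CPM in library 3. The intervals of libraries 1 and 3 overlapped, and that of library 2 lay below both. Such a gap was not particular to Thbs4, since the intervals of Sparc did not overlap in any pair of libraries. The edgeR test gave an adjusted p of 0.956 for Thbs4, and Thbs4 was the only one of the 10 genes with a mean under 10 CPM.

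Genes of tendon and bone were looked at beside Comp and Thbs4. Of 6 tendon and cartilage markers, Tnmd, a tendon membrane protein, was at 187 ± 71.2 CPM and Acan at 49.9 ± 4.96 CPM. The tendon transcription factor Scx was at 0.164 CPM on average. Among 5 osteoblast markers, Alpl, the tissue-nonspecific alkaline phosphatase, was at 3597 ± 1171 CPM and Sp7 at 55.4 ± 6.46 CPM. Bglap (osteocalcin) was at 2.97 ± 3.59 CPM. The osteoblast sum was 4966, 3471 and 2650 CPM in libraries 1, 2 and 3, an order set by Alpl, since the other 4 genes were highest in library 2. The tendon and cartilage sum was 254, 393 and 230 CPM, also highest in library 2, whereas Comp and Thbs3 were highest in library 1. Their part in the thrombospondin values was not tested.

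Tenascin C, periostin and osteopontin share a role in repair rather than a protein family. Tnc (chromosome 4, 63959785 to 64047015, minus strand) was at 11.5, 28.9 and 16.5 CPM. Library 2 was highest, 2.51-fold above library 1, and the edgeR test gave an adjusted p of 0.9997. Spp1 (chromosome 5, 104435118 to 104441050, plus strand), a secreted integrin and CD44 ligand, was at 102, 141 and 203 CPM in libraries 1, 2 and 3. Its adjusted p from edgeR was also 0.9997, and 26.6% of tested genes had a larger range. Spp1 shares 309 bp of exon, 18.8% of its exon length, with the predicted gene Gm42793 on the same strand, and reads there could be left uncounted.

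Macrophages are a known source of osteopontin, and their markers were in the same order of libraries as Spp1. The 8 macrophage markers summed to 11.3, 182 and 487 CPM in libraries 1, 2 and 3. Of the 5 that passed the filter, edgeR called 4 variable, namely C1qa, C1qb, C1qc and Csf1r, where 0.437% of all genes tested were called. C1qb was at 1.62, 39.2 and 130 CPM and C1qc at 1.11, 36.9 and 105 CPM in libraries 1, 2 and 3, and Spp1 differed by at most 2.0-fold between libraries. Sparcl1 had the same order, at 245, 296 and 659 CPM, so the order was not particular to Spp1. The osteoblast sum ran the opposite way, at 4966, 3471 and 2650 CPM in libraries 1, 2 and 3. This order was that of Alpl alone, at 4871, 3350 and 2569 CPM. The other 4 osteoblast markers were highest in library 2, so the sum does not stand for the list. The part of macrophages or osteoblasts in the Spp1 values was not tested.

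**Figure D2:**
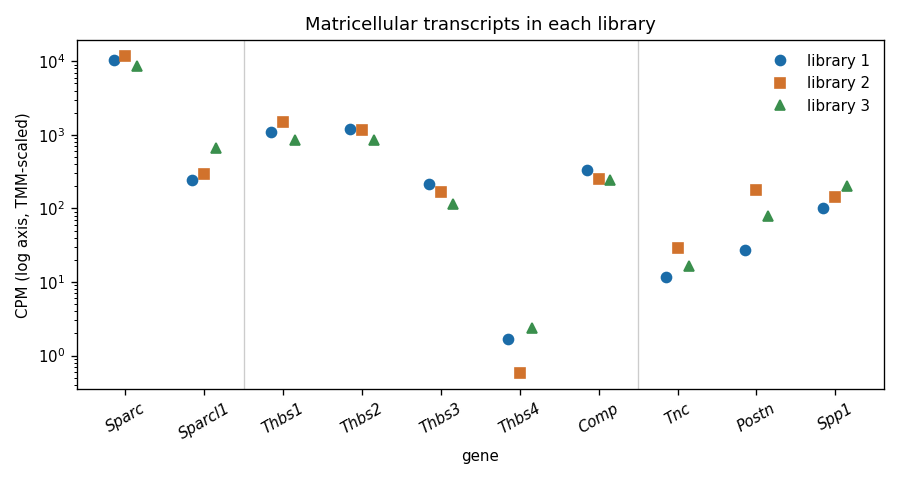
CPM of the 10 genes on a log axis, with 1 symbol per library, and vertical lines between the SPARC family, the thrombospondins and the other genes. Sparc lies between 8730 and 11754 CPM, Thbs4 under 3 CPM, and Postn shows the widest spread, from 27.0 to 180 CPM.

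Postn encodes periostin, a matricellular protein of collagen-rich connective tissue such as periosteum, ligament and heart valves. It was at 27.0, 180 and 79.0 CPM in libraries 1, 2 and 3 (535, 5343 and 2049 counts). Library 2 was 6.64-fold above library 1, and 0.611% of tested genes had a larger range. Postn was the only one of the 10 genes called variable between libraries (edgeR goodness of fit, Benjamini-Hochberg adjusted p = 0.0442), a share of 1 in 10 beside 0.437% of all genes tested. At an unadjusted p under 0.05, edgeR gave 2 of the 10 genes, Postn and Sparcl1, beside 7.04% of all genes. The call for Postn was lost when any library was left out, with edgeR adjusted p-values of 0.318 without library 1, 0.857 without library 2 and 0.168 without library 3.

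Genes of low GC content had lower counts in library 1 than in the other libraries, so the GC content of Postn was set beside its values. On the log2 scale, Postn in library 1 was 2.10 below the mean of libraries 2 and 3. The longest annotated Postn transcript (5223 bases) has a GC content of 36.3%, but it is annotated as a retained intron, and 95.0% of it lies outside the exons of protein-coding Postn transcripts. The transcript with the longest coding sequence (2670 bases) has a GC content of 45.7%. Both kinds of sequence are shown here, 5′ to 3′ on the plus strand of GRCm38, with G and C in capitals and A and T in lower case. The first is exon 8, the longest exon that is wholly coding (chr3:54372004-54372216, 213 bases, 46.0% GC). The second is an equally long stretch of intron (chr3:54380726-54380938, 35.2% GC), chosen as the window nearest in GC content to the 2895-base intron stretch that holds it.
Postn coding exon: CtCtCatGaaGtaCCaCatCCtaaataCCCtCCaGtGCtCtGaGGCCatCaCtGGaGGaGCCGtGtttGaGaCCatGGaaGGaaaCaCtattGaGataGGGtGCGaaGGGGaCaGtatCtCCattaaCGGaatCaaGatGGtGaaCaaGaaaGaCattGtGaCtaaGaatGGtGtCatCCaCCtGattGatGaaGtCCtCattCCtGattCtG
Postn retained intron: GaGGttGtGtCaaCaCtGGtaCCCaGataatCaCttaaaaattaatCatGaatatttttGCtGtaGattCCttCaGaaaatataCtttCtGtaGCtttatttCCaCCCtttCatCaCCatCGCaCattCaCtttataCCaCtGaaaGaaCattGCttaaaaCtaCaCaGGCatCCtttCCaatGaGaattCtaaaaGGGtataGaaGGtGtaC
The capitals are visibly sparser in the intron stretch.

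The result for Postn turned on which transcript stood for the gene. When smooth trends with GC content of the longest transcript and with exon length were removed from each library, the difference of library 1 shrank to -0.42 on the log2 scale and the call was lost (edgeR adjusted p = 0.9999). With GC content and length of the coding transcript, an alternative chosen after seeing the data, the difference was -1.65 and the call held (edgeR adjusted p = 0.00539). No other gene of the 10 was called under either version. Of the tested genes, 0.598% had a longest transcript with GC content at or below that of Postn. For the coding transcript the share was 24.1%. The trend for the longest transcript was thus read near the end of the GC range, where few genes lie. For Spp1 the library 1 difference was -0.73 as measured, -0.22 with the longest transcript and -0.26 with the coding transcript. Among the 10 genes the library 1 difference and GC content had a Spearman coefficient of 0.709 with either transcript. Over 14375 tested genes it was 0.608 for the longest and 0.616 for the coding transcript. Without Postn, the coefficient of the other 9 members was 0.6 for the longest and 0.65 for the coding transcript. These coefficients describe genes that share the same 3 libraries. The part of GC content in the Postn values was not tested.

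**Figure D3:**
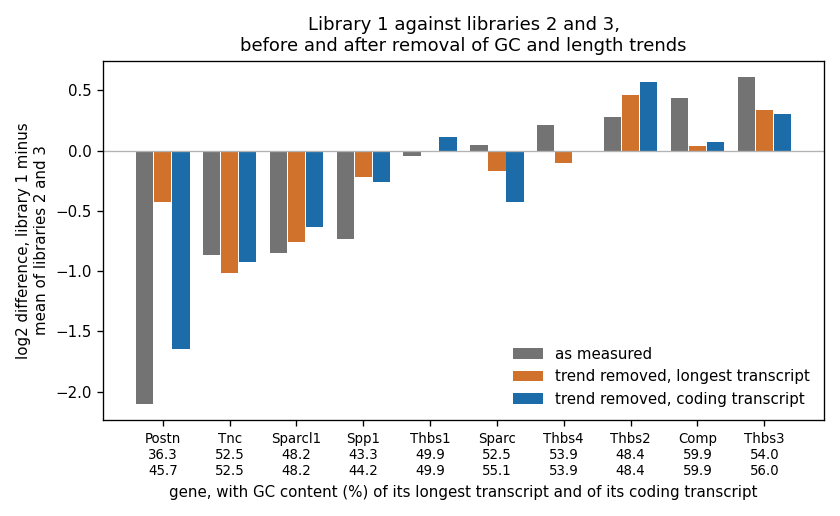
Bars give the log2 difference of library 1 from the mean of libraries 2 and 3 for each gene, as measured and after removal of trends fitted on the longest or the coding transcript, without error bars because each is 1 library against 2. The bars of Postn (-2.10, -0.42 and -1.65), Tnc, Sparcl1 and Spp1 are below 0 under all 3, and those of Sparc, Thbs1 and Thbs4 change sign.

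Levels of different genes were compared per length, as counts per kilobase of exon scaled to 1000000 in each library (TPM). Sparc was at 8430 ± 1761 TPM, Thbs1 at 589 ± 214, Thbs2 at 473 ± 85.7 and Sparcl1 at 425 ± 251 TPM (SD, n = 3). Comp and Spp1 were nearly level at 281 ± 25.2 and 282 ± 110.2 TPM. Thbs3 followed at 104 ± 25.0, Postn at 35.6 ± 31.1, Tnc at 7.75 ± 4.33 and Thbs4 at 1.41 ± 0.836 TPM. Per length of the coding transcript, Sparc was at 15861 ± 3438 and Postn at 79.0 ± 69.5 TPM. These transcripts have 1366 and 2670 bases, against 3788 and 8702 bases in the union of annotated exons. The longest Sparc transcript, also annotated as protein-coding, has 2300 bases, and per that length Sparc was at 10720 ± 2310 TPM. By the mean of log2(TPM + 1), the order of the 10 genes was the same per length of exon, coding transcript and longest transcript. By mean TPM, Comp and Spp1 changed places, at 234 ± 19.7 and 223 ± 88.3 TPM per coding transcript.

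Of the 9 pairs of neighbours in this order, 6 held their order in 3 of 3 libraries. Sparc exceeded Thbs1 by 3.88 ± 0.205 on the log2(TPM + 1) scale, the gap with the smallest spread. For each of those 6 pairs p was 0.25 in an exact permutation test that flips signs within libraries (two-sided), the smallest value that 3 libraries allow, and 0.375 after adjustment over the 9 pairs. The pairs Thbs2 and Sparcl1, Sparcl1 and Comp, and Comp and Spp1 did not keep their order across libraries. The gap between Thbs1 and Thbs2 was 0.27 ± 0.27 per exon length and held in 3 libraries, but per coding transcript it was 0.08 ± 0.27 and held in 1. Thbs3 was above Postn in 3 libraries per exon length and in 2 per coding transcript. Summed per kilobase of exon, the trimeric thrombospondins were 2.26, 3.48 and 2.49 times the pentameric ones in libraries 1, 2 and 3.

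**Figure D4:**
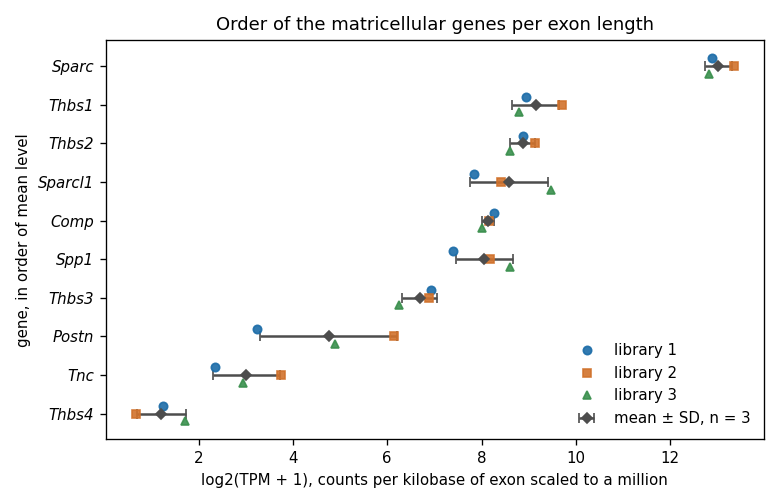
Levels per exon length as log2(TPM + 1), in order of the mean, with 1 symbol per library and a diamond with a bar for the mean ± SD of 3 libraries. Sparc stands alone at the top, and Thbs4 is lowest. The bars of Thbs1, Thbs2, Sparcl1, Comp and Spp1 overlap with those of neighbours in the order, and those of Postn and Tnc overlap with each other.

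Other genes of the same protein families were examined next. Of 14 such genes, 11 passed the filter on low counts and 0 were called variable by edgeR, where 0.437% of all genes were. The leading ones were Fstl1, a SPARC family member with a follistatin domain, at 1712 ± 402 CPM, and Tgfbi, a paralogue of periostin, at 691 ± 138 CPM. Among other tenascins, Tnxb was at 34.3 ± 19.3 and Tnn at 18.0 ± 6.12 CPM, beside 19.0 ± 8.93 CPM for Tnc. Per kilobase of exon the 3 were at 8.43 ± 4.08, 9.69 ± 4.16 and 7.75 ± 4.33 TPM, within their spread of each other. Of the bone-related relatives of Spp1 on this list, Ibsp was at 3.24 ± 3.14 CPM, Dmp1 at 3.45 ± 1.11 CPM and Dspp at 0 counts. The CCN family, matricellular proteins of another fold, had 5 of 6 genes past the filter with 0 called by edgeR, led by Nov (1797 ± 462 CPM) and Cyr61 (385 ± 69.9 CPM).

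Receptors for these ligands were expressed by the same preparation. Of 19 receptor genes, 18 had a mean above 1 CPM and 17 passed the filter. The endocytic receptor Lrp1, which takes up thrombospondin, led with 2195 ± 434 CPM, followed by integrin beta 1 (Itgb1) at 289 ± 90.7 CPM. The thrombospondin receptors Cd47 and Cd36 differed, at 86.1 ± 18.6 and 3.62 ± 3.90 CPM, and Cd36 was at 0.0505 CPM in library 1. Cd44 was at 14.4, 40.7 and 55.8 CPM in libraries 1, 2 and 3. Of the 17 that passed the filter, edgeR called 1 variable, where 0.437% of all genes tested were called. The receptor called was Ptprz1, a phosphatase that binds tenascin C, at 1.16, 6.59 and 24.3 CPM (edgeR adjusted p = 0.00849).

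Of 12 genes for matrix and growth factor partners, 8 had a mean above 100 CPM and edgeR called 0 variable, where 0.437% of all genes tested were called. Per kilobase of exon, Sparc at 8430 ± 1761 TPM was above its collagen ligands Col1a2 (2866 ± 496 TPM) and Col1a1 (2425 ± 635 TPM). By counts, Col1a2 was at 11497 ± 935 CPM and Sparc at 10322 ± 1519 CPM. The first scale uses the union of annotated exons, and the collagens were not compared per coding transcript. Of 10 genes for proteases that cleave these or related matrix proteins, 9 passed the filter. Ctsk, which encodes cathepsin K, was at 444 ± 104 and Mmp2 at 442 ± 88.0 CPM, and Adamts1, which cleaves thrombospondin 1, was at 253 ± 29.2 CPM. Mmp9 alone was called variable, at 88.6, 39.8 and 10.9 CPM in libraries 1, 2 and 3 (edgeR adjusted p = 0.0354), an order of libraries opposite to that of Spp1. Other marker lists were low or uneven. Neuronal markers were led by Snap25 (56.2 ± 12.5 CPM) and Tubb3 (13.3 ± 1.51 CPM), and choroid plexus markers by Clic6 (32.7 ± 16.6 CPM) and Kcnj13 (29.4 ± 24.0 CPM). Of the 5 choroid plexus markers, all past the filter, edgeR called 2 variable, Kcnj13 and Kl, where 0.437% of all genes tested were called. Both were lowest in library 1. Postn, Tnc, Sparcl1 and Spp1 were also lowest in library 1, and of these edgeR called Postn alone. The part of choroid plexus cells in their values was not tested.

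The genes nearest in level across the 3 libraries were listed for each gene, by the Euclidean distance of their log2(CPM + 1) values over the 14409 genes tested. Sparc had Igfbp5 (distance 0.310) and Col1a2 (0.338) nearest, and Thbs2 had Cxcl12 (0.0675) and Emilin1 (0.217). Sparcl1 had Vim (0.239) and Anxa1 (0.352), which were also highest in library 3. Spp1 had Vcl (0.135) and Psma6 (0.182), and Thbs1 had Gja1 (0.329) and Efemp1 (0.335). The nearest for Comp were Nfe2l1 (0.0376) and Ppib (0.0849), for Thbs3 Hfe (0.132) and Cxcl16 (0.157), for Tnc Hiatl1 (0.0551) and Zfc3h1 (0.140), and for Thbs4 Myct1 (0.0322) and Tnfrsf18 (0.0764). Postn was the most isolated, with Marcks (0.459) and Gulp1 (0.535) nearest. Distances over 3 libraries follow mostly the level and say little of a shared pattern.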

How the data were processed

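RNA was reverse transcribed and amplified from 2 ng per sample (integrity number 9.7 to 10) over 12 cycles, and libraries were made with 8 PCR cycles and read as 50 bp pairs, per the labels' protocols. The deposited values are raw counts per gene, 46983 genes plus 5 counter rows that name no gene. Those rows made up 39.1% to 45.6% of each library's total and were left out. HTSeq 0.5.3, DESeq2 1.22.1 and the build mm10 are listed in the submitters' processing notes, without their roles. The aligner, annotation release and strand setting were not given in the sources used here. Gene identifiers were matched without version to GENCODE M21 (GRCm38), which held 46488 of them (98.9%), and coordinates, lengths and GC content are from it.

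Counts were scaled by TMM in edgeR 4.0.16 (R 4.3.3). Genes past filterByExpr at a minimum count of 10 (14409, all 10 members among them) were tested for variation between libraries by goodness of fit in edgeR, with an intercept-only model and the dispersion trend, adjusted over all of them, at a threshold of 0.05. The quasi-likelihood test has no contrast in 1 group. In counts simulated for those 14409 genes, the test recovered 109 of 200 genes changed 8-fold in 1 library and 17 of 200 changed 4-fold, with 1 false call each, so changes of the size seen in most members would mostly be missed. Paired counts of libraries differed by a chi-square per degree of freedom of at least 61.2, so no library was a copy of another. A count of 0 allows up to 3 counts. Amplified reads are not independent molecules, so intervals cover counting error only. Alternatives were DESeq2 size factors (1.42.0), plain totals, other filters, trend removal with mgcv 1.9.3, other lengths, a pseudocount of 0.1 in place of 1, and leaving out each library. The text names every member, the 2 most abundant genes of each list, list genes called variable, the 2 nearest genes of each member, and a few list genes chosen after their values were seen (Tnxb, Tnn, Ibsp, Dmp1, Dspp, Cd47, Cd36, Cd44, Adamts1, Scx, Bglap and Dsp). The values of 1 marker list are not reported here. The members and lists were chosen with earlier results of these data known.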

Additional observations from a re-analysis of the deposited data

How the results depend on the processing

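Other scalings moved the mean CPM of each of the 10 genes by at most 2.41%. The mean of Postn, 95.2 CPM, was 53.0 CPM without library 2. The 1 gene called variable, Postn, was called again with DESeq2 size factors, plain totals and a mean of at least 10 counts. The number called was 0 with no filter on low counts (edgeR adjusted p for Postn 0.0539, with 25083 genes tested), 0 after removal of the trends with GC content of the longest transcript and exon length, and 0 in each fit that left out a replicate, which had fewer samples. Over all genes the count of 63 was 134 with no filter, 181 with a mean of at least 10 counts, 110 after trend removal and 107 with the coding transcript. It ranged from 12 to 28 across the fits that left out each replicate. Beyond the number of genes or samples, the cause of these shifts was not tested. The share of the 10 genes (1.37% of counts) was 1.06% per kilobase of exon, a scale on which long genes weigh less. The number of neighbouring pairs in order in every library (6 of 9) was 4 to 7 under the alternatives. No paired analysis was possible because all libraries are of 1 group. Depth limited Thbs4 alone, whose counts of 17 to 61 carry a counting error of 18.8%.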

Other observations

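Which Postn transcript was taken from the annotation changed the genes it was set beside in library 1. Over 126 tested genes within 1 percentage point of the GC content of its longest, intron-holding transcript (36.3%), the median difference of library 1 from the other libraries was -1.49 on the log2 scale, and 20.6% of them were lower than Postn. Over 1389 genes near the GC content of its coding transcript (45.7%), the median was -0.37, and 0.720% were lower than Postn. Whether GC content had a part in the library 1 value of Postn was not tested.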
